A study of Homo sapiens with 2 samples.

Results

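The 10 genes described here encode inhibitors in the negative feedback of mitogen-activated protein (MAP) kinase signalling: the MAP kinase phosphatases DUSP1, DUSP2, DUSP4, DUSP5, DUSP6 and DUSP10 and the feedback inhibitors SPRY2, SPRY4, SPRED1 and SPRED2. They were chosen by name, as every probe set that the platform annotation gives to one of these symbols. That rule found 27 probe sets of 44988 that carry 1 gene symbol, and 10 of 18132 genes. The measurements come from H1299, a long-established line from a human non-small cell lung cancer that has no p53, transiently transfected by lipofection. One group received pcDNA3.1 carrying EGR1, the other the empty pcDNA3.1 vector, and RNA was taken 48 hours later. Both groups share the line, the vector backbone and the transfection reagent. Each group is 1 Affymetrix array, so no value below has a replicate error or a p-value, and all differences describe these arrays.

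Growth factors switch on ERK, the last kinase of the RAS-RAF-MEK-ERK cascade, and stress switches on its relatives JNK and p38. The MAP kinase phosphatases end these signals by removing both the phosphothreonine and the phosphotyrosine of the active kinase. DUSP1, DUSP2, DUSP4 and DUSP5 are nuclear enzymes of the immediate-early kind, DUSP6 is a cytoplasmic phosphatase of ERK, and DUSP10 acts on JNK and p38. Sprouty and SPRED proteins act further upstream, between the receptors and RAF. EGR1 is itself a product of ERK signalling, a zinc-finger factor that binds GC-rich DNA. The series asks which genes EGR1 regulates in these cells, and the question here is how far the feedback inhibitors differed between the arrays.

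The levels are log2 values made by the authors with RMA, which removes background, brings the arrays to a common distribution and combines the probes of each probe set into a single level. A difference is the EGR1 array minus the empty-vector array on that log2 scale. Levels of different probe sets depend on their probes and were not compared as amounts of RNA. The array distributions were alike: the lower quartile was 4.28 with the empty vector and 4.32 with EGR1, and the upper quartile 7.50 and 7.47. A measurement is repeated only where a gene has several probe sets. The pooled SD between them was 0.15 over 7113 genes, which covers probe-level error alone and leaves out cultures, transfections and arrays. Of 6 EGR1 probe sets, 2 were higher in the EGR1 array (log2 differences of 3.73 and 2.76) and 4 were lower (-0.39 to -0.20), and where each lies relative to the plasmid's insert was not established. The floor on dim signals was a mean level of 5.22, the 40th percentile of all probe sets. Of 5 genes listed for a carcinoma line of epithelial origin, 4 lay above it and EPCAM was under it. VIM, which is not an epithelial marker, was brightest (13.73 with the empty vector, 13.66 with EGR1). KRT19 was near the floor (5.36 and 5.61). The mean level of the 5 genes was 8.38 with the empty vector and 9.09 with EGR1, KRT8 and KRT18 being higher with EGR1. The part of this in the results below was not tested. Of 3 measured leukocyte markers 1, CD3E, passed the floor, and PTPRC read 2.95 and 2.80. None of 4 fibroblast markers passed the floor, though COL1A1 (5.31 with the empty vector, 5.13 with EGR1) fell just short of it. Of 3 endothelial markers 2 passed it, with VWF highest at 6.21 in both arrays. The share of cells that took up the plasmid is not given, so a small difference in all cells and a large one in a few cannot be told apart.

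The nuclear phosphatases DUSP1, DUSP2, DUSP4 and DUSP5, grouped so after the values were seen, were higher in the EGR1 array in each of their 7 probe sets, by 0.26 to 0.98. SPRY4 was above 0 in all 3 of its probe sets as well, by 0.12 to 0.25. DUSP6, DUSP10, SPRY2, SPRED1 and SPRED2 lay around 0 by their brightest probe set. Over all 27 probe sets 14 were above 0, 11 below and 2 equal to the last digit, with a median of 0.03. Among all probe sets 45.5% were above 0 and 49.1% below, and the median was 0. In the deposited values the members' share above 0 is therefore near the background. The members' count depends on the scaling, because values within 0.06 of 0 change sign. After a lowess correction for level 19 of 27 were above 0, and after quantile normalization 18. The share of all probe sets above 0 was not counted under either scaling, so these counts cannot be set against a background. At 1.5-fold, 1 member probe set was higher and 0 were lower, against 0.836% and 0.696% of all probe sets. At 2-fold it was 0 and 0, against 0.238% and 0.0445%. At a smaller log2 difference of 0.32, 5 were that much higher and 1 that much lower, where 5.39% and 5.46% of all probe sets lie. Those 5 belong to DUSP1 and DUSP2, so 2 of 10 genes were that much higher by their brightest probe set and 0 that much lower (4.36% and 3.25% of all genes past the floor). Differences over the pooled SD were found in 8 member probe sets on the higher side and 1 on the lower, against 21.1% and 22.1% of all probe sets.

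**Figure D1:**
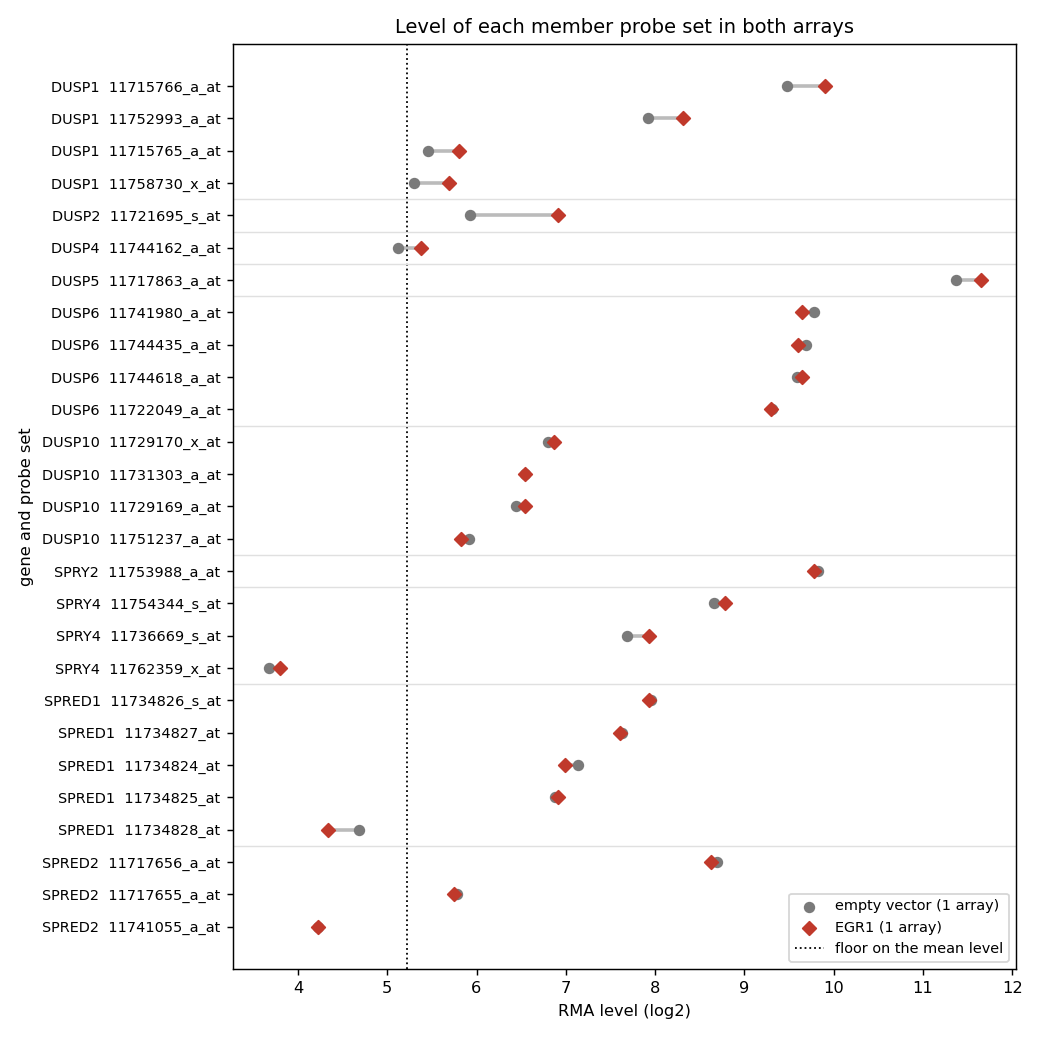
RMA level (log2) of each of the 27 member probe sets in the empty-vector array (grey circles) and the EGR1 array (red diamonds), 1 array each; the dotted line is the floor of 5.22. All DUSP1, DUSP2, DUSP4 and DUSP5 diamonds lie to the right of their circles, and DUSP6 and SPRED2 diamonds lie on or close to theirs.

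DUSP2, a nuclear phosphatase best known from activated lymphocytes, showed the largest difference of the 10 genes. Its single probe set, 11721695_s_at, read 5.93 with the empty vector and 6.91 with EGR1. That is a difference of 0.98, or 1.97-fold higher, just short of 2-fold. It ranked 46 of 12652 genes past the floor, counted from the largest positive difference. Among 7069 probe sets whose mean level lay within 0.5 of that of DUSP2, 0.354% were higher with EGR1 by as much or more. The gap to the next member, DUSP1, was 0.56. The suffix _s_at marks a probe set that can bind more than one transcript, and no other DUSP2 probe set was there to compare.

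DUSP1, which inactivates p38, JNK and ERK in the nucleus and is itself an immediate-early gene, was measured by 4 probe sets that gave nearly the same result. The brightest, 11715766_a_at, read 9.48 and 9.91 (empty vector, then EGR1), a difference of 0.42 or 1.34-fold higher. Probe set 11752993_a_at read 7.92 and 8.31, with a difference of 0.39. The dim pair, 11715765_a_at and 11758730_x_at, was designed on one sequence record and differed by 0.35 (5.45 and 5.80) and 0.39 (5.30 and 5.69). So the EGR1 array was higher at every level of brightness. The SD between the 4 probe sets was 0.03, against the pooled 0.15. DUSP1 is 1 of 17 genes, among 3822 with 4 or more probe sets (0.445%), in which every probe set was higher by 0.32 or more. By its brightest probe set it ranked 276 of 12652.

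DUSP5, a nuclear phosphatase that is specific for ERK and retains it there, had 1 probe set. It read 11.37 with the empty vector and 11.65 with EGR1, a difference of 0.28 (1.22-fold higher). Differences this far up were less common among bright probe sets: 3.27% of 611 probe sets of like level were higher by as much or more, against 7.65% of all. DUSP4, another nuclear phosphatase of ERK and JNK, also had 1 probe set, which read 5.12 and 5.38. Its difference of 0.26 (1.20-fold higher) was close to that of DUSP5, but without EGR1 it lay under the floor, and its mean was barely above it. Here 11.5% of 7896 probe sets of like level were higher by as much or more. The order DUSP2, DUSP1, DUSP5, DUSP4 has 1 gap over the pooled SD, that between DUSP2 and DUSP1. DUSP1 and DUSP5 (gap 0.14) and DUSP5 and DUSP4 (gap 0.02) were not separated beyond it.

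**Figure D2:**
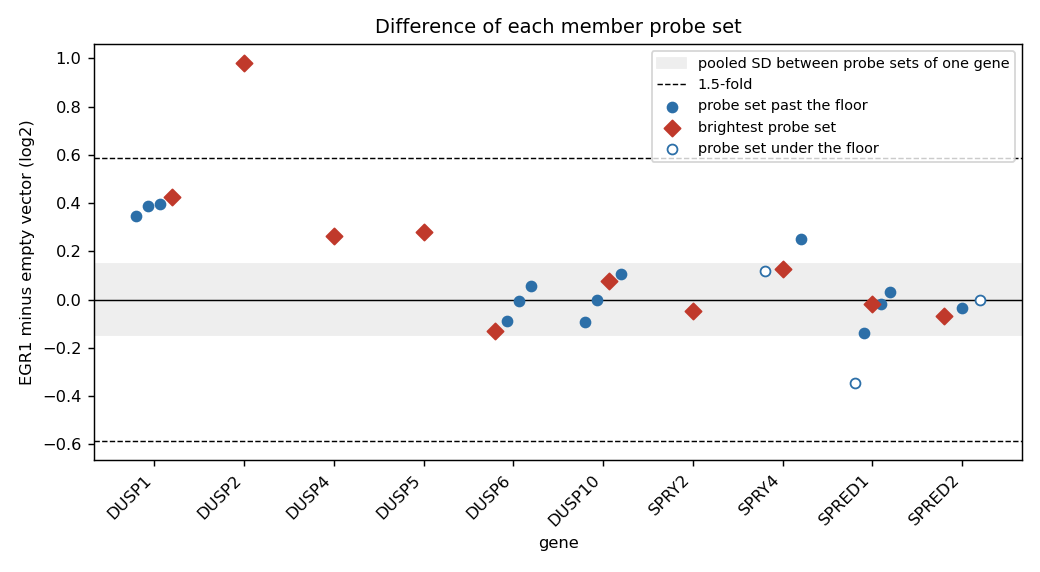
Log2 difference, EGR1 minus empty vector, of every member probe set by gene; red diamonds are the brightest probe set of a gene, blue points the others, open points those under the floor, the grey band is 1 pooled SD (0.15) on either side of 0 and dashed lines mark 1.5-fold. DUSP2 at 0.98 is the 1 point beyond 1.5-fold, and the 4 DUSP1 points sit together between 0.35 and 0.42.

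DUSP6, the cytoplasmic phosphatase that binds ERK and is a standard readout of ERK activity, did not share this pattern. Its 4 probe sets read 9.78, 9.69, 9.59 and 9.31 with the empty vector and 9.65, 9.60, 9.64 and 9.30 with EGR1. The differences were -0.13, -0.09, 0.06 and -0.01, each within the pooled SD. The last became 0.05 after lowess correction and 0.03 after quantile normalization. By its brightest probe set DUSP6 was the lowest of the 10 genes, at 1.10-fold lower, and 22.4% of genes past the floor differed as far or further down. DUSP10, the phosphatase of JNK and p38, was also within the pooled SD in all 4 probe sets, with differences from -0.10 to 0.11. Of these, 2 were designed on one sequence record. The brightest probe set read 6.80 and 6.87, and 11731303_a_at gave the same value, 6.55, in both arrays. Values of this size, on both sides of 0, have no settled direction.

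The Sprouty genes encode membrane-associated inhibitors that are phosphorylated after receptor activation, and SPRY2 binds the ubiquitin ligase CBL and the adaptor GRB2. SPRY2 had 1 probe set, which read 9.83 and 9.78. The difference of -0.05 became 0.004 after lowess correction. SPRY4 was above 0 in all 3 probe sets. The brightest, 11754344_s_at, read 8.66 and 8.78 (difference 0.12), 11736669_s_at read 7.69 and 7.94 (0.25), and 11762359_x_at, under the floor, read 3.67 and 3.79 (0.12). Only 11736669_s_at exceeded the pooled SD, and 5.30% of 4924 probe sets of like level were higher by as much or more. All 3 carry suffixes of probe sets that can bind related transcripts.

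SPRED1 and SPRED2 bring neurofibromin to the membrane, where it turns RAS off. The brightest SPRED1 probe set read 7.95 and 7.93, a difference of -0.02. Of the other 4, those past the floor differed by -0.14, -0.02 and 0.03, the last on the same sequence record as the brightest. The fifth, 11734828_at, read 4.68 and 4.33, a difference of -0.35. It was the lowest of all member probe sets, lay under the floor, and went beyond its gene's others, which ran from -0.14 to 0.03. SPRED2 read 8.70 and 8.63 by its brightest probe set, a difference of -0.07, and its others differed by -0.03 and, under the floor, 0. The signs of SPRY2, SPRED1 and 1 DUSP6 probe set changed with lowess correction, so none of these has a settled direction. From DUSP4 down to DUSP6, no 2 neighbouring genes in the order of differences were more than 0.14 apart, which is under the pooled SD.

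**Figure D3:**
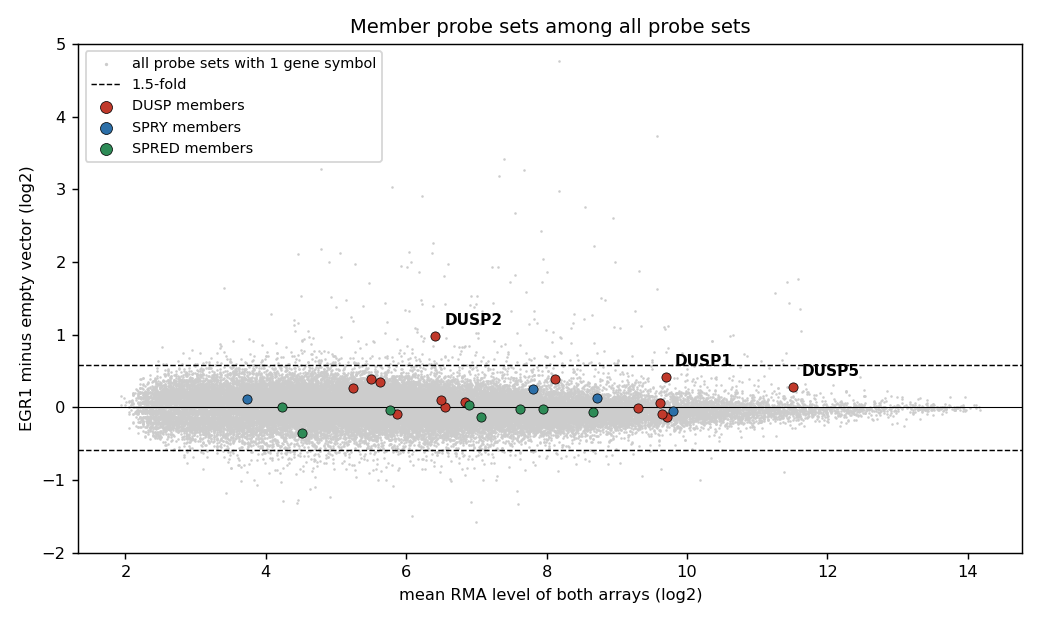
Log2 difference, EGR1 minus empty vector, against the mean log2 level of both arrays for all 44988 probe sets with 1 gene symbol (grey), with DUSP members in red, SPRY in blue and SPRED in green; dashed lines mark 1.5-fold. DUSP2 lies beyond the 1.5-fold line at 0.98, while DUSP1 (0.42, brightest probe set) and DUSP5 (0.28) lie under it. Among probe sets of like level, 1.27% were higher by as much as this DUSP1 probe set or more, and 3.27% by as much as DUSP5 or more.

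Sequence before the transcription start was examined because EGR1 binds DNA and because the nuclear phosphatases were higher while DUSP6 was not. RefSeq promoters (GRCh38.p14) matched 8 of the 10 genes, all but DUSP4 and DUSP5, in 12 windows of 250 bases that end at an annotated start. The windows of DUSP1 and DUSP2, the genes that differed most, are printed with those of SPRY4 and DUSP6, 5′ to 3′ on the gene's strand. Capitals mark the motifs searched, on either strand, and overlapping motifs run together. DUSP1 is chr5:172771196-172771445, DUSP2 is chr2:96145441-96145690, SPRY4 is chr5:142324248-142324497 and DUSP6 is chr12:89352502-89352751, all on the minus strand.
DUSP1: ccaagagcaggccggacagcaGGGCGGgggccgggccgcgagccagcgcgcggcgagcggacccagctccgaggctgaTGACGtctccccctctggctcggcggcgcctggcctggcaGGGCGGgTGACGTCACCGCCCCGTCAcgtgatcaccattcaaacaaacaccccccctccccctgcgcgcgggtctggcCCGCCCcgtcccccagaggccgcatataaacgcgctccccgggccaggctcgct
DUSP2: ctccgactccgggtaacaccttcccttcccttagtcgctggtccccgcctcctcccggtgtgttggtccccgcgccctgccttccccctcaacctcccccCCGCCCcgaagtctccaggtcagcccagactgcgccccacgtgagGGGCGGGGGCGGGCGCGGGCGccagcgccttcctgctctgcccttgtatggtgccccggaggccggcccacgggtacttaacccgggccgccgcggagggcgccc
SPRY4: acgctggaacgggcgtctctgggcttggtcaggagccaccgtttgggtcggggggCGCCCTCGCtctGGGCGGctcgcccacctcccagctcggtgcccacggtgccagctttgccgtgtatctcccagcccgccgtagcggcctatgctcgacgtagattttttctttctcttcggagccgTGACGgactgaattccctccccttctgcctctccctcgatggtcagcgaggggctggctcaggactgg
DUSP6: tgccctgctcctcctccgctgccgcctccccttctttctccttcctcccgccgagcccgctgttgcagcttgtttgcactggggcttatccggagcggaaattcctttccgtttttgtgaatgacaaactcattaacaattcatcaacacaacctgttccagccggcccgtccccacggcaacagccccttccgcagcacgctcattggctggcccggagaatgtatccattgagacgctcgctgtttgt

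The EGR1 site in the form GCGTGGGCG was in none of the 12 windows and in 0.721% of 35116 windows of this length. The looser EGR-type core GCGNGGGCG allows any base at N, so it also takes in GCGGGGGCG, another form of the EGR1 site. This core was in 8.42% of all windows and in windows of DUSP2, SPRY2 and SPRY4. DUSP2 held it at 2 places, as GCGGGGGCG and GCGCGGGCG, starting 103 and 93 bases before the start. That stretch also holds GC boxes (GGGCGG, in 42.6% of all windows). SPRY4 held the core at 1 place, 195 bases before the start. In SPRY2, 1 window held it at 2 places and the other SPRY2 windows lacked it. The difference was -0.05 in SPRY2 and 0.98 in DUSP2. Which start these cells use was not examined, and a link between the core and the differences was not tested. DUSP1 has no EGR-type core here but has the cyclic AMP response element TGACGTCA, 125 bases before the start, found in 1.65% of all windows and in no other member window. Its shorter form TGACG, in 21.2% of all windows, lies on both strands of that element and was also in DUSP1 at 172 and 111 bases before the start, in 1 SPRY2 window and in SPRY4. No member window held a CArG box, the site of serum response factor (1.16% of all), or the AP-1 site TGANTCA (6.57%). The DUSP6 window held none of the 7 motifs. A match describes the letters of this window alone, and GC content did not order the genes as their differences did. It was 74.4% in DUSP1, 74.0% in DUSP2 and 57.2% in DUSP6, but 78.4% in SPRED1, 70.4% in the SPRY2 window with the EGR-type core and 39.2% in 1 SPRED2 window, against a median of 58.0% over all windows.

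The remaining genes of both families were listed with earlier results of these data known. By brightest probe set, 0 of the 3 other MAP kinase phosphatases past the floor reached 1.5-fold in either direction (0.941% of all genes past the floor were that much higher and 0.229% that much lower). DUSP9, like DUSP6 a cytoplasmic phosphatase of ERK, read 5.74 and 6.02, and its 2 probe sets differed by 0.28 and 0.36, as much as DUSP4 and DUSP5. DUSP8 and DUSP16, which act on JNK and p38, differed by 0.17 and 0.004, and their probe sets went both ways (-0.26 to 0.17 and -0.18 to 0.19). DUSP7 was under the floor at -0.10. Grouped by textbook class after the values were seen, the 4 nuclear phosphatases had 7 of 7 probe sets above 0 and a median of 0.39. The 3 cytoplasmic ones had 3 of 7 above 0 and a median of -0.01, and the 3 of JNK and p38 had 5 of 9 above 0 and a median of 0.004. Probe sets of one gene share their target, so these counts and medians rest on 4, 3 and 3 genes. DUSP1 gave 4 of the 7 nuclear probe sets and DUSP6 gave 4 of the 7 cytoplasmic ones. The medians of those classes are each the value of a probe set of that gene. The other Sprouty and SPRED genes gave 0.18 for SPRY1, 0.08 for SPRY3 and 0.30 for SPRED3, with 0 of 3 at 1.5-fold. All 3 were above the values of SPRY2, SPRED1 and SPRED2 by brightest probe set. SPRY1 was the least settled, since its 3 probe sets ran from -0.23 to 0.18 and their mean was -0.09. The SPRED3 probe sets differed by -0.08 and 0.30.

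Atypical dual-specificity phosphatases, which lack the kinase-docking domain of the MAP kinase phosphatases, had a median of 0 over 15 measured genes of 17 listed symbols, equal to the median of all genes. None of the 11 past the floor reached 1.5-fold. DUSP26 differed by 0.26, DUSP14 by 0.23 and DUSP15 by 0.14. Other negative regulators of receptor, RAS and ERK signalling had a median of -0.04 over 11 measured genes of 13 listed, with 3 above 0 and 7 below. Among the 10 that passed the floor, 1 reached 1.5-fold higher. This was LRIG1, a transmembrane protein that promotes the turnover of ERBB receptors, which read 5.95 and 6.80 (difference 0.85, 1.80-fold higher). Its second probe set differed by 0.14, and the mean of both was 0.50. RASAL2, a RAS GTPase-activating protein, differed by 0.28, but its 5 probe sets ran from 0 to 0.28 with a mean of 0.11. The RAF inhibitor PEBP1 differed by -0.09.

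The kinases that the phosphatases act on, and the proteins that activate them, differed little. None of 16 genes of the RAS-ERK cascade past the floor reached 1.5-fold, and the median was 0.03 over 17 measured genes of 22 listed (10 above 0, 7 below). The adaptor SHC1 differed by 0.27, MAPK3, which encodes ERK1, by 0.26, and MAPK7, which encodes ERK5, by 0.21. MAPK7 and MAP2K5 are counted in this list although they belong to the separate ERK5 cascade. None of 12 genes of the JNK and p38 cascades past the floor reached 1.5-fold either. Their median was 0.003 over 14 measured genes of 16 listed, with 7 on each side of 0. MAPK10, which encodes a JNK, differed by 0.34 in one probe set and 0 in the other, a mean of 0.17. MAP3K1 differed by 0.29, while MAP3K7 was lower by its brightest probe set at -0.30, with probe sets from -0.30 to 0.19. These arrays measure RNA, and no measure of phosphorylated kinase was examined.

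Other transcriptional outputs of ERK signalling lay on both sides of 0. Among 13 that passed the floor, 2 reached 1.5-fold higher, 0 reached 1.5-fold lower and 11 reached neither (0.941% and 0.229% of all genes past the floor), and the median was 0.11 over 15 measured genes of 16 listed (11 above 0, 4 below). Of all genes 47.6% were above 0 and 47.9% below. IER3, an immediate-early survival gene, read 10.47 and 12.05, a difference of 1.58. FOS, the AP-1 subunit, read 9.12 and 10.22, a difference of 1.10, with all 4 probe sets from 0.75 to 1.10. ETV4, an ETS factor, followed at 0.40. The genes that follow were named outside the rule and after their values were seen. The growth factor gene HBEGF differed by 0.28 and SPHK1 by 0.29, while ETV1, another ETS factor, was at -0.29 with probe sets from -0.33 to 0.23. PHLDA1 differed by 0.003, ETV5 by -0.03, CCND1, which encodes cyclin D1, by -0.04 and EPHA2 by 0.06 by their brightest probe sets. Other probe sets went further down, to -0.30 in PHLDA1, -0.33 in ETV5 and -0.38 in CCND1, where all 4 were below 0. FOSL1, another AP-1 subunit, was below 0 in all 6 probe sets, from -0.26 to -0.15.

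**Figure D4:**
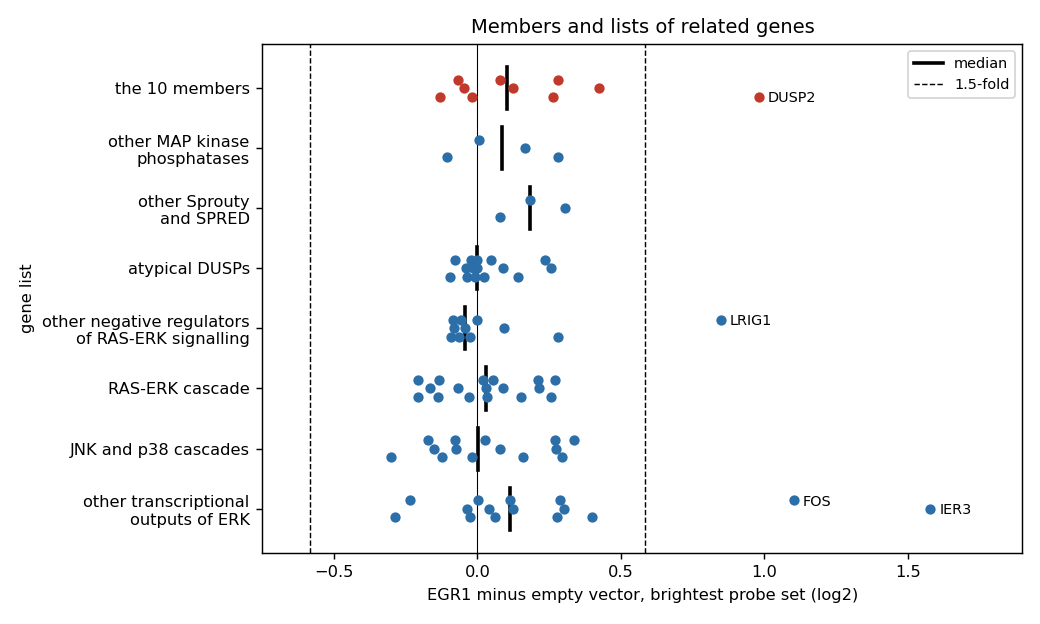
Log2 difference, EGR1 minus empty vector, of each gene by its brightest probe set, for the 10 members (red) and 7 lists of related genes (blue); black bars are list medians and dashed lines mark 1.5-fold. DUSP2, LRIG1, FOS and IER3 are the 4 genes beyond 1.5-fold, and the medians lie between -0.04 and 0.18.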

How the data were processed

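One array of H1299 cells with the empty vector and 1 with EGR1 were compared. The authors deposited log2 probe-set values made with RMA, per the submitters' processing notes; its software, settings and genome build are not stated there. Of 49395 probe sets 44988 had 1 gene symbol in the platform annotation, and 44961 of these were matched to RefSeq (GRCh38.p14) by Entrez ID. From the deposited log2 values, the EGR1 array minus the empty-vector array was taken per probe set with Python 3.11.15 and pandas 2.3.3. The probe set with the highest mean stood for a gene (ties by identifier), with a floor at the 40th percentile for list counts and a 1.5-fold threshold. With 1 array per group no test was made, and the number of arrays limits the precision. Named were all members and in each of 7 lists up to 3 genes past the floor that differed most in either direction, other names being marked. Members and lists were chosen with earlier results of these data known. Alternatives were lowess and quantile scaling, the mean or median of all probe sets, leaving out _x_at and _s_at probe sets, other floors, and thresholds of 2-fold and of 0.32 on the log2 scale. The procedure was run on simulated arrays with planted differences larger than that of any member. Their noise was set by the pooled SD between probe sets and left out cultures, transfections and arrays. The run therefore does not show how well differences of the members' size are measured. Motifs were sought as exact matches on both strands. Protein sequences were not used here.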

Additional observations from a re-analysis of the deposited data

How the results depend on the processing

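Of 276 values recomputed under 10 alternatives, 257 stayed within the pooled SD of 0.15 (counts, within 1.5 times), 19 moved further and 0 called values changed sign. Without _x_at and _s_at probe sets, 0 of 20 member probe sets were at 1.5-fold higher, since the DUSP2 probe set is left out, and 8 were above 0. The shares of all probe sets without these suffixes were not counted. At 2-fold 0 were higher, and at a log2 threshold of 0.32, 5 were higher and 1 was lower. Scaling moved no member probe set by more than 0.06 and kept all 7 of DUSP1, DUSP2, DUSP4 and DUSP5 above 0. LRIG1 at 0.50 with the mean of its probe sets was no longer at 1.5-fold. The medians of the member probe sets, the other MAP kinase phosphatases, the RAS-ERK cascade and the JNK and p38 cascades changed sign under at least 1 alternative; averaging all probe sets of a gene, for example, gave -0.02 for the other MAP kinase phosphatases. That of the other negative regulators stayed below 0 under all that were run. No paired analysis was possible because each group has 1 array.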
